A study of Caenorhabditis elegans with 10 samples.

Results

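The Hedgehog-related ligand genes of Caenorhabditis elegans are the warthog (wrt), groundhog (grd) and ground-like (grl) genes together with hog-1 and qua-1. Members were chosen by gene symbol alone: every wrt, grd or grl gene with a number, plus hog-1 and qua-1, found through the WormBase identifiers of the count table. This gave 58 genes of 20182 in the table: 10 wrt, 16 grd and 30 grl genes, hog-1 and qua-1. A 59th symbol of the rule, grl-30, was not analysed here. Ribosome footprints, the mRNA fragments shielded by translating ribosomes, had been sequenced from whole worms of the wild-type strain N2 that grew without interruption. All worms came from eggs left to hatch overnight before the larvae were put on peptone-rich plates with NA22 bacteria, and the labels give no difference between samples other than time. Libraries were spaced by 2 h, the first 18 h and the last 36 h after the larvae were plated, so that 10 groups of 1 library each make up the series and no time has a replicate.

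In flies and vertebrates a Hedgehog protein is cut by its own C-terminal Hog domain, which leaves a lipid-modified N-terminal signal that binds Patched. C. elegans has no clear Hedgehog and no Smoothened. It has instead an enlarged set of secreted proteins that share the Hog domain or carry the cysteine-rich Wart, Ground or Ground-like domains at their N-terminal part, and an enlarged set of Patched-related proteins. Many members are expressed in the epidermis, its seam cells, glia or other cells that face the cuticle, and loss of several disturbs moulting, growth or cuticle. Larvae moult at the end of each stage, and many genes of the cuticle-forming cells are active once per stage.

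Library totals ran from 16723638 counts at 24 h to 33696423 counts at 26 h. Levels are given as CPM, counts scaled to a library of 1000000. Markers of 8 tissues were all present in the table, and 36 of the 40 had at least 10 counts in every library. The exceptions were the seam gene nhr-73, at 0 in 1 or more libraries, the seam genes bro-1 and ceh-16, and the pharyngeal factor ceh-22. The 5 epidermal collagens summed to between 1140 CPM (22 h) and 15467 CPM (20 h) and all 5 oscillated. The sum of 5 body-wall muscle genes stayed between 10397 CPM and 16503 CPM and none of them was called. Cycles were also called for 3 of 5 pharyngeal, 2 of 5 intestinal and 2 of 5 tested seam genes. So were those of 2 of 4 glial and excretory genes, but of none of 5 neuronal and 5 germline genes. The collagens are made by cells in which many ligand genes are also active, and the part of such a common course in the results was not tested. In whole worms, fewer cells of a type and less RNA per cell cannot be told apart, and with footprints alone neither can mRNA level and translation. Nothing in the labels says that libraries came from separate cultures, so p-values measure scatter around a fitted curve through the 10 libraries.

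Footprints of most ligand genes that could be tested went up and down over a period of 8 h, by large factors. Of the 58 members, 46 had enough counts to be tested and 37 oscillated, against 22.7% of the 13958 genes tested. The median of their peak-to-trough differences was 5.79 log2 (55.2-fold), and 31 of the 37 differed by at least 4 log2. With the 4 oscillating members that had a library at 0 set to their lower bound, the median was 5.78 log2. Over all 3174 oscillating genes the median was 2.42 log2, and 896 of them differed by at least 4 log2. Over all tested members the median was 5.11 log2, against 0.59 log2 over all tested genes. Testing needed at least the CPM of 10 counts in the median library in 3 libraries, a level that a gene with high peaks passes more easily than an even one. Without any filter 39 of 58 members were called, against 17.2% of 18519 genes. The added calls were those of grd-4 and grl-31, which had at most 11 and 23 counts in a library. A call here means that a sine wave of 8 h, fitted together with linear time, passed the quasi-likelihood test of edgeR at an adjusted p below 0.05, and that peak and trough lay at least 1 log2 apart.

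The wrt genes had 8 oscillating of 10 tested, the grd genes 11 of 13 tested and 16 in all, and the grl genes 16 of 21 tested and 30 in all, while hog-1 and qua-1 oscillated both. Median differences of the oscillating members were 6.09 log2 for wrt (1.09 to 7.01 log2), 5.21 log2 for grd (4.02 to 7.72 log2) and 6.27 log2 for grl (2.21 to 8.01 log2). These ranges overlap, and no test across genes was made between subfamilies. All wrt genes passed the filter, while 3 of 16 grd genes and 9 of 30 grl genes did not.

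**Figure D1:**
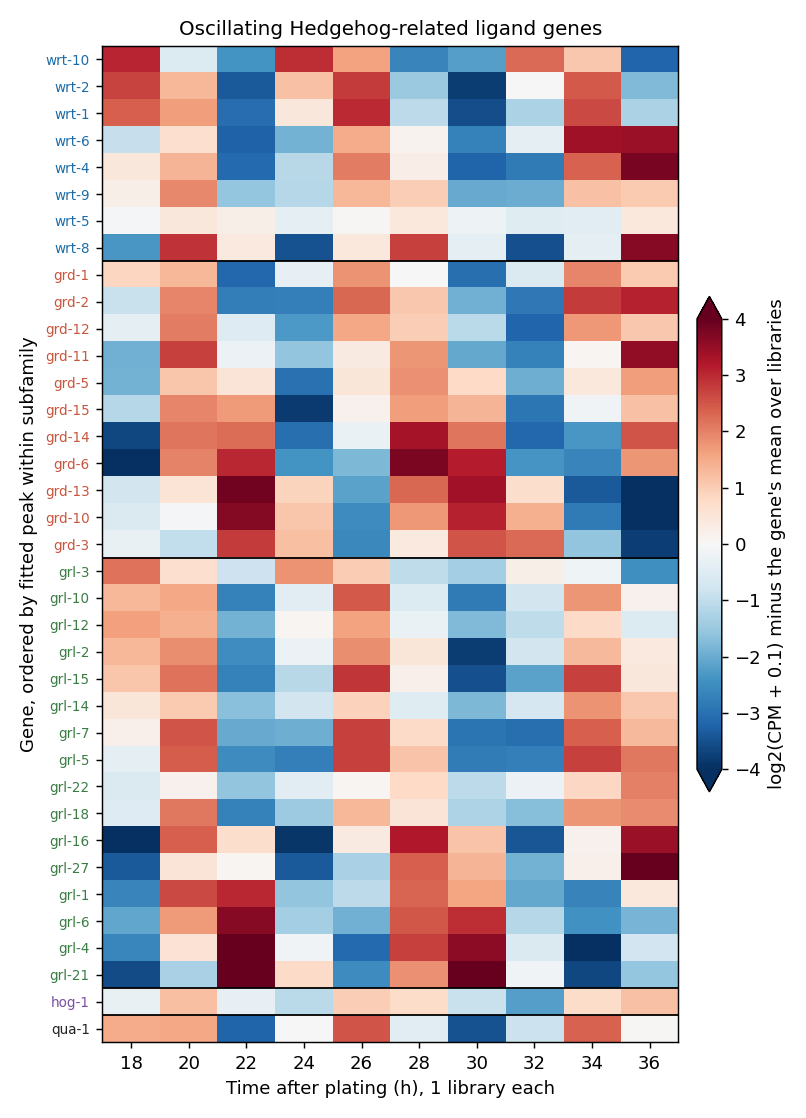
Footprint levels of the 37 oscillating Hedgehog-related ligand genes in each of the 10 libraries, as log2(CPM + 0.1) minus the mean of that gene. Rows are grouped by subfamily and ordered by fitted peak time, and high levels lie at 18, 24 and 32 h for wrt-10, at 18, 26 and 34 h for wrt-2 and wrt-1 below it, and at 22 h and 30 h for the lowest grd and grl rows.

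Warthog genes were among the earliest to peak. The most abundant of them per coding length, wrt-10 (WBGene00006956), stood at 1298, 107, 29.9 and 1225 CPM at 18, 20, 22 and 24 h, at 482, 25.2, 33.7 and 757 CPM at 26, 28, 30 and 32 h, and at 332 and 17.3 CPM at 34 and 36 h. It was thus highest at 18, 24 and 32 h and low at 22, 28, 30 and 36 h. Its difference was 6.04±0.53 log2 with a peak at 25±0.115 h (edgeR adjusted p = 0.00198). Footprints of wrt-2 (WBGene00006948), whose promoter is used to mark seam cells, the stem-like cells of the epidermis, were at 404, 154, 5.88 and 137 CPM at 18, 20, 22 and 24 h, at 424, 22.0, 4.35 and 60.6 CPM at 26, 28, 30 and 32 h, and at 334 and 18.1 CPM at 34 and 36 h. The libraries at 18, 26 and 34 h were its highest, and those at 22 and 30 h, with 5.88 and 4.35 CPM, its lowest, for a difference of 6.40±0.72 log2 (peak 25.9±0.141 h, edgeR adjusted p = 0.00404). The neighbour of wrt-10 on the chromosome, wrt-1 (WBGene00006947), encodes a Wart and a Hog domain and was at 588, 355, 13.4 and 151 CPM at 18, 20, 22 and 24 h, at 877, 53.1, 9.51 and 45.8 CPM at 26, 28, 30 and 32 h, and at 700.3 and 46.6 CPM at 34 and 36 h. High libraries were again those at 18, 26 and 34 h, with 355 CPM also at 20 h, and the difference was 6.39±0.70 log2 (peak 26.1±0.137 h, edgeR adjusted p = 0.00353).

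Other warthogs peaked later. Much less abundant, wrt-8 (WBGene00006954) stood at 0.653, 27.6, 4.84 and 0.239 CPM at 18, 20, 22 and 24 h, at 4.96, 24.9, 2.78 and 0.227 CPM at 26, 28, 30 and 32 h, and at 2.77 and 46.9 CPM at 34 and 36 h. Its level was above 20 CPM only at 20, 28 and 36 h, which are 8 h apart, and under 1 CPM at 18, 24 and 32 h. The difference of 7.01±0.79 log2 was the largest of the wrt genes (peak 28.1±0.117 h, edgeR adjusted p = 0.00214). Between these lay wrt-6 (26.8 h), wrt-4 (26.9 h) and wrt-9 (27 h), which differed by 5.33±0.71 log2, 6.14±0.98 log2 and 4.31±0.47 log2. Without the 22 h library the adjusted p of wrt-4 in edgeR was 0.0585 (5.95 log2). A quite different course was that of wrt-5 (WBGene00006951), a gene essential for epidermal development, which held between 6.70 CPM and 12.9 CPM. Its cycle of 1.09±0.17 log2 was the smallest called among all members, and without the 36 h library it was 0.95 log2, under the size required. It was also under that size with total counts alone as scaling (0.91 log2) and in the deposited normalized values (0.88 log2). The tested wrt genes that were not called were wrt-3, at 1.92 to 12.1 CPM, and wrt-7, with at most 28 counts in a library.

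Of the 11 peaks of called groundhogs, 7 came after the last peak of a called warthog at 28.1 h, those of grd-5, grd-15, grd-14, grd-6, grd-13, grd-10 and grd-3. The peak of grd-5, at 28.2±0.189 h, lay within its standard error of that time. The calls of grd-15, grd-13, grd-10 and grd-3 each ended when certain single libraries were left out. The Hog-domain gene grd-2 (WBGene00001691) stood at 4.53, 32.9, 1.16 and 1.20 CPM at 18, 20, 22 and 24 h, at 42.2, 18.1, 2.15 and 1.09 CPM at 26, 28, 30 and 32 h, and at 59.0 and 72.1 CPM at 34 and 36 h. It was high at 20, 26, 34 and 36 h and near 1 CPM at 22, 24 and 32 h (difference 6.85±0.81 log2, peak 27.1±0.136 h, edgeR adjusted p = 0.00388). The most abundant groundhog per coding length, grd-5 (WBGene00001694), has a coding region of only 101 codons and ran at 62.0, 502, 332 and 29.5 CPM at 18, 20, 22 and 24 h, at 323, 814, 404 and 59.6 CPM at 26, 28, 30 and 32 h, and at 313 and 736 CPM at 34 and 36 h. Only its libraries at 18, 24 and 32 h were under 100 CPM, and the other 7 were all above 300 CPM. The difference was 4.02±0.59 log2 (peak 28.2±0.189 h, edgeR adjusted p = 0.00944).

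Sharper courses were found for grd-14 and grd-6. Footprints of grd-14 (WBGene00001703) were at 5.95, 332, 355 and 9.09 CPM at 18, 20, 22 and 24 h, at 62.1, 754, 334 and 8.42 CPM at 26, 28, 30 and 32 h, and at 14.8 and 428 CPM at 34 and 36 h. Its libraries at 20, 22, 28, 30 and 36 h were all above 300 CPM and the other 5 all under 70 CPM (difference 6.76±0.83 log2, peak 28.7±0.158 h, edgeR adjusted p = 0.00495). Those of grd-6 (WBGene00001695) were at 1.45, 137, 276 and 6.46 CPM at 18, 20, 22 and 24 h, at 9.79, 468, 304 and 6.52 CPM at 26, 28, 30 and 32 h, and at 5.41 and 116 CPM at 34 and 36 h. The same 5 libraries were above 100 CPM and the rest under 10 CPM, and its difference of 7.72±0.73 log2 was the largest of the grd genes (peak 29.0±0.124 h, edgeR adjusted p = 0.00266). Next to grd-14 on the same strand lies grd-4, which reached at most 11 counts in any library. A further groundhog, grd-11, had 0 counts at 32 h and 7.49 CPM at 36 h, which is at least 55.1-fold above the 3 counts taken as the floor of the 32 h library. The gene grd-15 lost its call (edgeR adjusted p = 0.0598 and 0.0503) without the 32 h or the 20 h library.

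A row of 3 neighbouring groundhogs held the latest peaks but for that of grl-21. By the Ensembl annotation grd-13, grd-3 and grd-10 follow each other on the same strand with no other protein-coding gene between them. grd-10 (WBGene00001699), whose promoter marks seam cells, stood at 18.8, 26.1, 359.8 and 59.8 CPM at 18, 20, 22 and 24 h, at 4.81, 93.5, 236 and 74.9 CPM at 26, 28, 30 and 32 h, and at 3.83 and 0.759 CPM at 34 and 36 h. grd-13 (WBGene00001702) stood at 12.9, 31.4, 316 and 40.2 CPM at 18, 20, 22 and 24 h, at 4.81, 106, 222 and 35.3 CPM at 26, 28, 30 and 32 h, and at 2.04 and 0.405 CPM at 34 and 36 h, and grd-3 (WBGene00001692) at 18.9, 11.6, 160 and 53.9 CPM at 18, 20, 22 and 24 h, at 3.83, 30.5, 134 and 112 CPM at 26, 28, 30 and 32 h, and at 7.69 and 1.62 CPM at 34 and 36 h. All 3 were highest at 22 h and second highest at 30 h, and lowest at 36 h, where each was under 2 CPM. Fitted peaks lay at 29.9±0.281 h for grd-13, 30.2±0.288 h for grd-10 and 30.8±0.259 h for grd-3, with differences of 5.55±1.24 log2, 5.21±1.19 log2 and 4.52±0.93 log2. These calls were close to the threshold (edgeR adjusted p = 0.0352, 0.0371 and 0.0205). Leaving out 1 library ended the call of grd-10 for 8 of the 10 libraries (all but 28 h and 36 h, adjusted p 0.0527 to 0.112), of grd-13 for 7 (all but 20, 28 and 36 h, 0.0557 to 0.127) and of grd-3 for 3 (22, 30 and 34 h, 0.0532 to 0.0662). The summed level of 6 seam cell genes was highest at 18 h (49.1 CPM) and lowest at 36 h (6.53 CPM), with nhr-73 at 0 in some libraries. At 22 h and 30 h this sum was 27.4 and 16.8 CPM, against 36.8 CPM at 24 h and 18.8 CPM at 32 h. The summed level of 5 pharyngeal genes was highest at 22 h (1201 CPM) and 30 h (1019 CPM) and lowest at 36 h (292 CPM), as in grd-10, grd-13 and grd-3. High sums at these times were not particular to the pharynx. That of 5 body-wall muscle genes was also highest at 22 h (16503 CPM) and 30 h (14577 CPM), though lowest at 34 h (10397 CPM). The part of any of these tissues in the courses of the 3 groundhogs was not tested.

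The largest cycle and the highest level of the whole family were both those of ground-like genes, though the second largest cycle was that of grd-6. grl-21 (WBGene00001730) stood at 1.81, 9.05, 982 and 38.2 CPM at 18, 20, 22 and 24 h, at 3.89, 80.1, 599 and 20.4 CPM at 26, 28, 30 and 32 h, and at 1.72 and 7.59 CPM at 34 and 36 h. It exceeded 100 CPM only at 22 and 30 h, and its difference of 8.01±0.99 log2 was the largest of all members (peak 30.0±0.151 h, edgeR adjusted p = 0.00347). Much the same order of libraries was seen for grl-4 (WBGene00001713), at 7.14, 66.7, 943 and 40.3 CPM at 18, 20, 22 and 24 h, at 5.10, 297, 527 and 29.7 CPM at 26, 28, 30 and 32 h, and at 2.53 and 26.4 CPM at 34 and 36 h. The level at 28 h was closer to that at 30 h than in grl-21, and the peak was fitted earlier, at 29.6±0.136 h (difference 7.42±0.80 log2, edgeR adjusted p = 0.00323).

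Earlier in the cycle came grl-5 and grl-16. Footprints of grl-5 (WBGene00001714) were at 87.5, 606, 19.4 and 16.9 CPM at 18, 20, 22 and 24 h, at 742, 246, 16.1 and 16.8 CPM at 26, 28, 30 and 32 h, and at 742 and 485 CPM at 34 and 36 h. Its libraries at 20, 26, 34 and 36 h were at 485 CPM or more, and those at 22, 24, 30 and 32 h all lay between 16.1 and 19.4 CPM (difference 7.04±0.76 log2, peak 27±0.134 h, edgeR adjusted p = 0.00409). The most abundant ligand gene of the series, grl-16 (WBGene00001725), stood at 28.4, 2629, 809 and 33.8 CPM at 18, 20, 22 and 24 h, at 633, 4575, 1092 and 46.6 CPM at 26, 28, 30 and 32 h, and at 562 and 5495 CPM at 34 and 36 h. Peaks were at 20, 28 and 36 h and troughs under 50 CPM at 18, 24 and 32 h, so that highest and lowest library differed 194-fold (fitted difference 6.82±0.83 log2, peak 28.2±0.155 h, edgeR adjusted p = 0.005). Also abundant, grl-7 and grl-15 peaked at 26.9 h and 26.6 h with differences of 6.47±0.78 log2 and 6.53±0.72 log2. The gene grl-2, expressed in the excretory duct and pore cells, had a mean of 3.59 CPM and differed by 4.62±0.80 log2. The gene grl-18, expressed in glia of the inner labial sense organs, had a mean of 1.49 CPM and differed by 5.52±1.11 log2. The cycle of grl-22, the smallest called among the grl genes (2.21±0.45 log2), lost its call without the 22 h or the 32 h library (edgeR adjusted p = 0.0559 and 0.0595).

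Of the genes outside the subfamilies, hog-1 (WBGene00001984) encodes a Hog domain without a Wart or Ground domain, and qua-1 (WBGene00004264) is required for moulting. Levels of hog-1 were at 5.87, 16.8, 5.75 and 3.35 CPM at 18, 20, 22 and 24 h, at 14.3, 12.1, 3.83 and 1.50 CPM at 26, 28, 30 and 32 h, and at 12.0 and 16.4 CPM at 34 and 36 h. Its high libraries at 20, 26, 28, 34 and 36 h were all above 10 CPM and the others under 6 CPM. The cycle of 3.12±0.47 log2 was smaller than that of most members (peak 27.4±0.182 h, edgeR adjusted p = 0.00686). Levels of qua-1 were at 655, 688, 25.5 and 236 CPM at 18, 20, 22 and 24 h, at 1351, 176, 20.7 and 128 CPM at 26, 28, 30 and 32 h, and at 1191 and 244 CPM at 34 and 36 h. This gene was high at 18, 20, 26 and 34 h and under 30 CPM only at 22 and 30 h, with a difference of 5.79±0.67 log2 (peak 26.3±0.146 h, edgeR adjusted p = 0.00483).

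**Figure D2:**
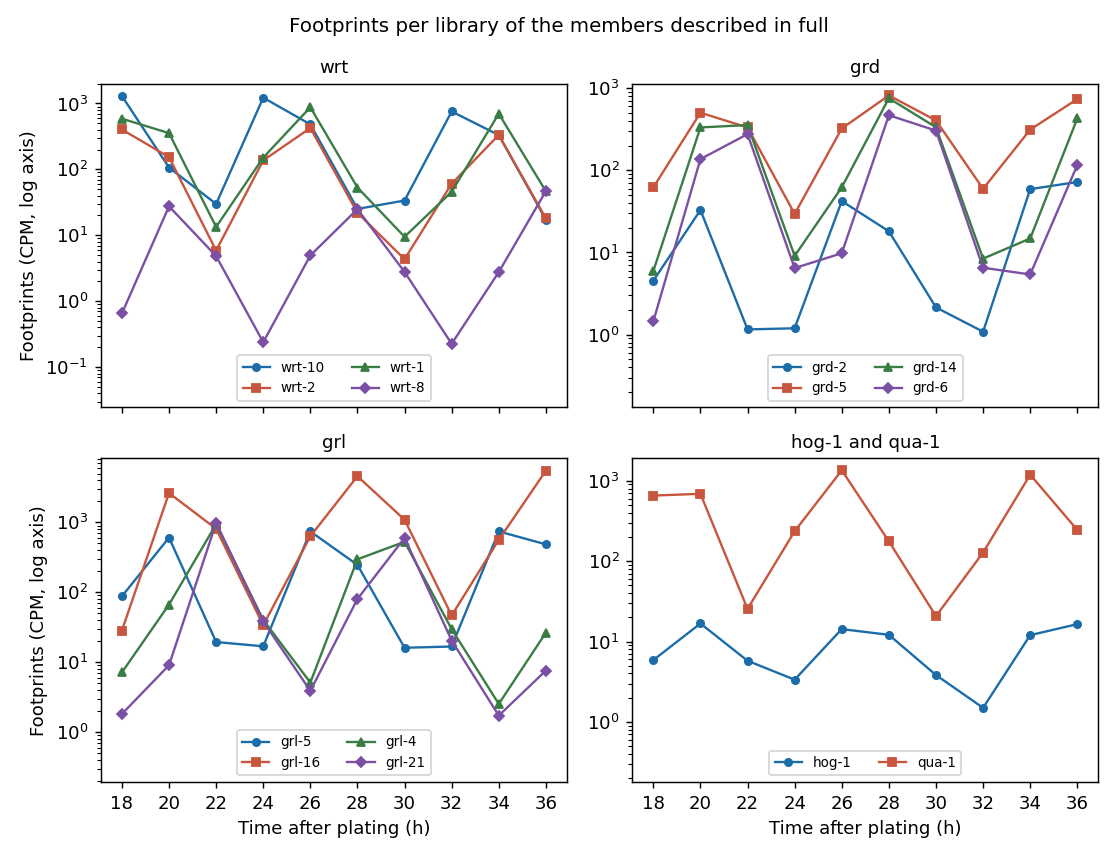
Footprints (CPM, log axis) against time after plating for the members described in full, with 1 point per library and no replicate. In the wrt panel wrt-10, wrt-2 and wrt-1 fall from 26 h to 28 h while wrt-8 rises, and in the grl panel grl-21 and grl-4 are highest at 22 h and 30 h, where grl-5 is near its lowest level.

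Fitted peaks of the oscillating ligand genes lay mostly from 26 h to 30 h, with a few before and after. Taken within the window from 24 h to 32 h, they ran from 25 h for wrt-10 to 30.8 h for grd-3, a span of 5.8 h, and the remaining 2.2 h of the cycle held none. The late end of this span was set by grd-10 and grd-3, whose calls ended when any of 8 and of 3 single libraries was left out. Of the 37 peaks, 3 lay from 24 h to 26 h, 20 from 26 h to 28 h, 12 from 28 h to 30 h and 2 from 30 h to 32 h. Over all oscillating genes these 4 windows held 761, 774, 779 and 860 peaks. Standard errors of single peaks were 0.102 to 0.288 h. Up to grd-10, gaps between successive members were at most 0.8 h and mostly 0.0 to 0.2 h, so most neighbours in this order do not differ beyond their errors, while its ends do. The resultant length, which is 1 where all genes peak together and 0 where peaks are even around the cycle, was 0.527 for the 37 members and 0.029 for all oscillating genes.

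The subfamilies were shifted against each other but overlapped. Mean peaks were at 26.7 h for wrt, 28.5 h for grd and 27.4 h for grl, with resultant lengths of 0.735, 0.568 and 0.537. No grd gene peaked before 26 h, and no wrt gene after 28.1 h. Without grd-3, grd-10 and grd-13, whose calls all ended when the 22 h, the 30 h or the 34 h library was left out, the grd peaks ran from 26.5 h to 29.0 h. All of the latest 4 peaks belonged to grd and grl genes: grd-13, grl-21, grd-10 and grd-3. The earliest 4 belonged to wrt-10, grl-3, wrt-2 and wrt-1.

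**Figure D3:**
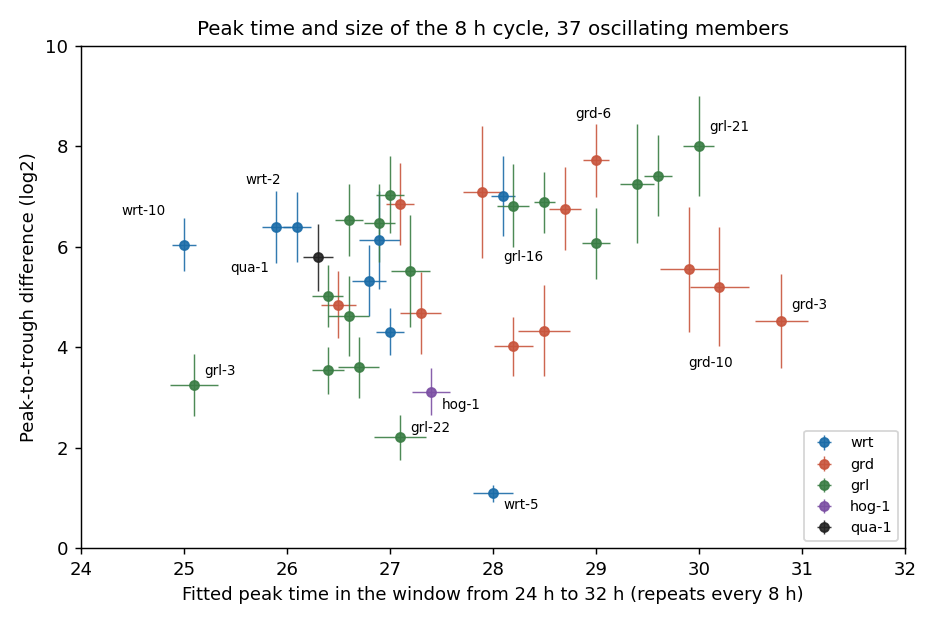
Fitted peak time (horizontal, hours in the window from 24 h to 32 h) and peak-to-trough difference (vertical, log2) of each of the 37 oscillating members, with bars for the standard errors of the fit. The wrt genes lie from 25 h to 28.1 h, the grd genes from 26.5 h to 30.8 h, and the grl genes from 25.1 h to 30.0 h, with wrt-5 alone under 2 log2.

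Sums of raw counts, with no curve fitted, describe the shift by library. They come from the same counts as the fitted peaks and are no separate support for them. Together the wrt genes held 0.251%, 0.119%, 0.0110% and 0.161% of all footprints at 18, 20, 22 and 24 h, 0.242%, 0.0424%, 0.00977% and 0.0947% at 26, 28, 30 and 32 h, and 0.242% and 0.185% at 34 and 36 h. Their sum was highest at 18, 26 and 34 h and lowest at 22 and 30 h. The grd genes held 0.0186%, 0.118%, 0.181% and 0.0227% at 18, 20, 22 and 24 h, 0.0577%, 0.233%, 0.165% and 0.0320% at 26, 28, 30 and 32 h, and 0.0546% and 0.144% at 34 and 36 h. They were thus among their highest at 22 and 30 h, where the wrt sum was lowest. The grl genes held 0.0643%, 0.509%, 0.286% and 0.0261% at 18, 20, 22 and 24 h, 0.363%, 0.574%, 0.230% and 0.0203% at 26, 28, 30 and 32 h, and 0.316% and 0.681% at 34 and 36 h. Their peaks were at 20, 28 and 36 h, with the lowest shares at 24 and 32 h. Counting error is small beside these differences: the widest Wilson 95% interval relative to its value, that of wrt at 30 h, ran from 0.00931% to 0.0102%.

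Few genes carried these sums. The 5 most abundant members held 90.4% of the mean wrt level, 86.2% of the grd level and 91.3% of the grl level. The single most abundant held 31.7% (wrt-10), 34.8% (grd-5) and 51.8% (grl-16). Without grl-16 the remaining grl genes were highest at 20, 26 and 34 h (0.247%, 0.300% and 0.259%) in place of 20, 28 and 36 h. Without wrt-10 the wrt share at 24 h was 0.0381%, and without grd-5 the grd share was still highest at 22 h (0.148%) and 28 h (0.152%).

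**Figure D4:**
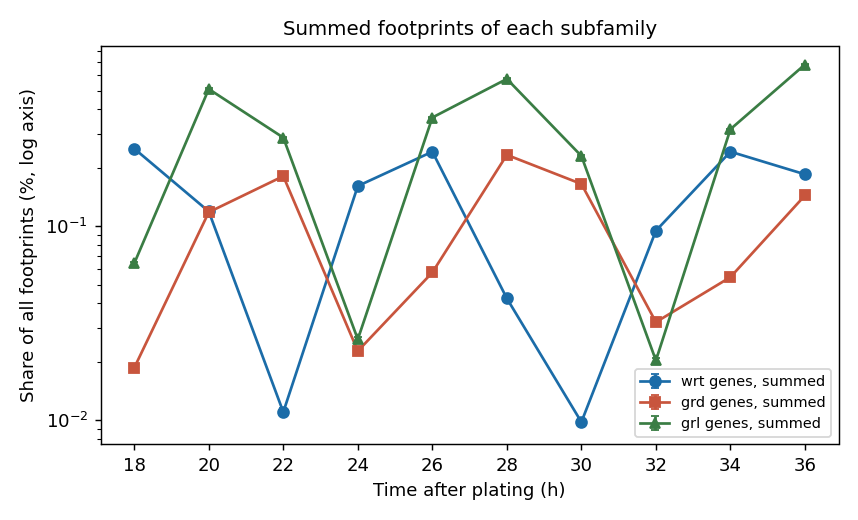
Share of all footprints (percent, log axis) held by the summed wrt, grd and grl genes in each library, with Wilson 95% intervals that are smaller than most symbols and cover counting error only. The wrt sum is lowest at 22 h and 30 h (0.0110% and 0.00977%), and the grl sum at 24 h and 32 h (0.0261% and 0.0203%).

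Levels between genes were compared per kb of coding length from the Ensembl annotation. On this scale the mean level over the 10 libraries was 1170 CPM per kb for grl-16, 1168 for grd-5, 556 for wrt-10, 514 for grl-7 and 499 for grd-14. Those of qua-1 and hog-1 were 134 and 12.5 CPM per kb. The median of tested members was 69.5 CPM per kb for wrt, 14.4 for grd and 3.60 for grl, against 10.8 for all tested genes. The grl genes thus included both the most abundant member and 9 of the 12 that were too scarce to test.

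Of the 21 members without a call, 9 were tested and 12 were not. The highest mean of the 9 tested was 6.28 CPM (wrt-3), and the others, wrt-7, grd-7, grd-16, grl-8, grl-9, grl-20, grl-23 and grl-25, had means of 0.251 CPM to 1.70 CPM. The fitted difference of grd-16 was 1.70±0.59 log2 (edgeR adjusted p = 0.0933). The untested grd-4, grd-8, grd-9, grl-11, grl-13, grl-17, grl-19, grl-24, grl-26, grl-28, grl-29 and grl-31 reached at most 23 counts in a library (grl-31). The lowest were grd-8 and grl-24, with at most 1 count. With no filter the other 10 were not called, which does not show that they lack a cycle.

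Few members had a called linear trend over the 18 h. Of the 46 tested members 5 rose, against 15.7% of all tested genes, and 2 fell, against 10.8%. Such calls came from the linear time term in edgeR, with the same limits on adjusted p and size. With total counts alone as scaling 4 rose and 5 fell. The called rises were those of wrt-6 (4.00±0.76 log2, edgeR adjusted p = 0.00386), grl-27 (5.53±0.61 log2, 0.000128), grl-22 (2.19±0.48 log2, 0.00726), grd-2 (2.37±0.77 log2, 0.0478) and grl-25 (5.76±1.77 log2, 0.0389). The called falls were those of grl-3 (-3.13±0.66 log2, edgeR adjusted p = 0.00508) and wrt-10 (-1.88±0.59 log2, 0.0349). Leaving out 1 library ended the trend call for 7 of the 10 libraries in wrt-10 (all but 22, 26 and 32 h), for 7 in grd-2 (all but 20, 26 and 28 h), for 8 in grl-25 (all but 28 and 36 h) and for the 36 h library in grl-22. Adjusted p was then between 0.0565 and 0.155.

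Peaks that grew from cycle to cycle were clearest in wrt-6 and grl-27. Footprints of wrt-6 (WBGene00006952), a Hog-domain gene, were at 24.9, 75.3, 4.97 and 12.7 CPM at 18, 20, 22 and 24 h, at 135, 53.2, 7.30 and 36.6 CPM at 26, 28, 30 and 32 h, and at 504 and 519.6 CPM at 34 and 36 h. Its highest level was 75.3 CPM up to 24 h, 135 CPM from 26 h to 32 h and 520 CPM after that. grl-27 (WBGene00001736) was at 0, 1.39, 0.994 and 0 CPM at 18, 20, 22 and 24 h, at 0.326, 5.32, 2.55 and 0.181 CPM at 26, 28, 30 and 32 h, and at 1.09 and 43.1 CPM at 34 and 36 h. With 0 counts at 18 h and 24 h, it was at 36 h at least 241-fold above the 3 counts taken as the floor of those libraries. The summed level of 5 germline genes was 316 CPM at 18 h and 1145 CPM at 36 h, and its part in these rises was not tested. The warthog wrt-4, whose trend was not called (2.32±1.06 log2), reached 192 CPM in the 20 h library, 311 CPM in that of 26 h and 1042 CPM in that of 36 h.

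The largest called rise followed another course. grl-25 (WBGene00001734) had 1, 1, 3 and 0 counts at 18, 20, 22 and 24 h, 13, 46, 40 and 108 counts at 26, 28, 30 and 32 h, and 30 and 13 counts at 34 and 36 h. It was scarce until 26 h, highest at 32 h and lower again afterwards, and its 8 h cycle was not called (1.41±1.39 log2, edgeR adjusted p = 0.706). Of the 9 tested members with no called cycle, 6 were highest at 32 h: grl-25, wrt-3 (12.1 CPM), grl-23 (5.12 CPM), grl-20 (1.27 CPM), grl-9 (0.679 CPM) and grd-7 (0.544 CPM). At 32 h grl-20, grl-9 and grd-7 had only 28, 15 and 12 counts. The 28 h library of grl-9 also had 15 counts, and the 18 h library of grd-7 had 13. How many of all tested genes were highest at 32 h was not counted. The largest called fall was that of grl-3 (WBGene00001712), with 65, 15, 5 and 30 counts at 18, 20, 22 and 24 h, 34, 4, 2 and 12 counts at 26, 28, 30 and 32 h, and 11 and 0 counts at 34 and 36 h. Its high libraries were those at 18, 24 and 26 h, with all libraries after 26 h under 1 CPM, and it oscillated by 3.25±0.61 log2.

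**Figure D5:**
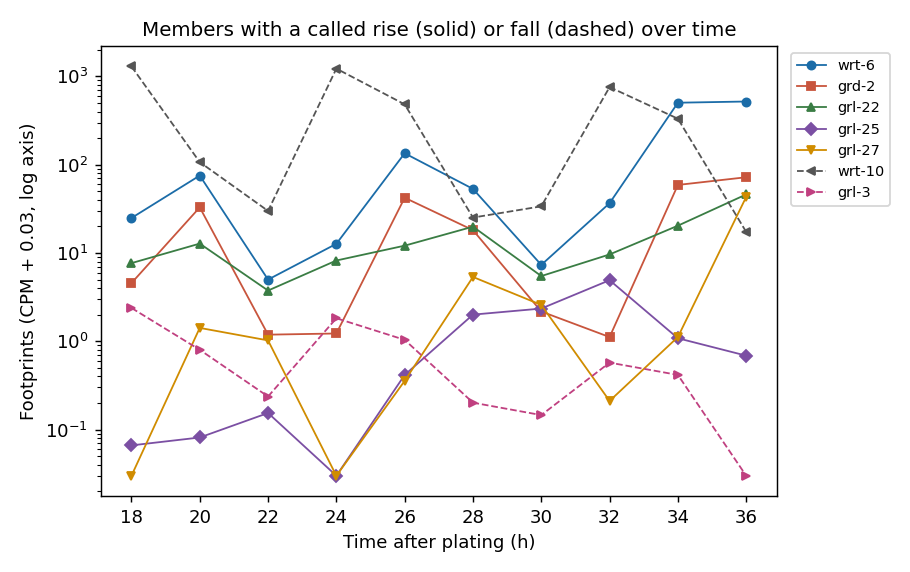
Footprints (CPM + 0.03, log axis) against time after plating for the 7 members with a called linear trend, 5 rises as solid lines and 2 falls as dashed lines, 1 point per library. The wrt-6 and grl-27 lines end at their highest levels, 520 CPM and 43.1 CPM at 36 h, whereas grl-25 is highest at 32 h with 4.89 CPM.

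The 8 h between high libraries were often not exact. Among the 37 oscillating members, the highest library of 26 h to 32 h came 6 h after the highest of 18 h to 24 h in 18 and 8 h after it in 18, while wrt-10 was highest at 18 h and 32 h. Over all 3174 oscillating genes these spacings were found in 20.5% and 64.9%. For example, grl-7 was highest at 20 h (1313 CPM) and 26 h (1517 CPM), and qua-1 at 20 h (688 CPM) and 26 h (1351 CPM). The 18 h library of qua-1, 8 h before that of 26 h, was nearly as high as its 20 h library (655 CPM). The spacing went with the peak time: of the 20 members with a fitted peak from 26 h to 28 h, 15 had that of 6 h (75%), against 49.5% of the 774 oscillating genes of that window. From 28 h to 30 h it was 3 of 12 members (25%), against 26.1% of 779 genes. No test was made of these shares. In 14 of the 46 tested members (30.4%) the highest and the lowest library of 18 h to 24 h both recurred 8 h later, a share near the 28.6% of all tested genes.

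Other genes of the pathway were counted from a list of receptors, secretion and lipid-handling factors. Of 40 such genes 39 were in the table, 38 were tested and 22 oscillated, against 22.7% of all tested genes. With time 2 rose and 4 fell, against 15.7% and 10.8% of all tested genes. The Patched and Patched-related receptors, membrane proteins with a sterol-sensing domain, made up 26 of the 38 tested and 19 of the 22 that oscillated. Of their 19 peaks 9 lay from 26 h to 28 h, a window that held 774 of the 3174 peaks of all oscillating genes. The essential receptor ptc-3 ran between 75.8 and 762 CPM (3.66±0.47 log2, peak 26.9 h, edgeR adjusted p = 0.00498), and ptr-16 had the largest cycle of them (6.45±0.91 log2, peak 27.5 h). In contrast ptc-1, which acts in the germline, stayed between 57.3 and 124 CPM and was not called (0.31±0.20 log2). Outside the receptors most tested genes of the list were not called. Those that oscillated were che-14, a Dispatched relative of apical secretion (3.67±0.52 log2, peak 26.4 h), hhat-1, related to the acyltransferase that adds a lipid to Hedgehog (3.87±0.52 log2, peak 26.3 h), and lrp-1, a megalin relative needed for moulting (2.15±0.42 log2, peak 26.3 h). Their relatives ptd-2 (0.77±0.34 log2, edgeR adjusted p = 0.232) and hhat-2 (1.52±0.45 log2, 0.0698), of the Dispatched and the acyltransferase list, were not called. Also not called were tra-1, the relative of the GLI transcription factors that in worms controls sex (0.37±0.26 log2), the exostosin relatives rib-1 and rib-2, and the glypicans gpn-1 and lon-2. The Niemann-Pick relatives ncr-1 and ncr-2 were not called either, ncr-1 on size alone (1.00±0.23 log2 after rounding, edgeR adjusted p = 0.0296). Of 7 moulting regulators counted beside the pathway genes, 4 oscillated, against 22.7% of all tested genes: lin-42 (peak 25.4 h), grh-1 (26.0 h), myrf-1 (24.4 h) and bed-3 (27.2 h). Not called were nhr-23 (2.52±0.65 log2, edgeR adjusted p = 0.0586), nhr-25 (1.91±0.73 log2, 0.191) and blmp-1 (0.89±0.21 log2, 0.0304), the last on size alone.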

How the data were processed

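Footprints from whole N2 worms were measured in 10 libraries, 1 for each time. The authors deposited raw counts per gene with no scaling, and normalized values that match log2 of counts scaled to the mean library total plus 8. Bowtie is named, without a version, per the submitters' processing notes. For the build, the annotation, strand and multiply mapping footprints, nothing is given in the sources used here. Similar family members are uncertain to that extent, and no coordinates are given. Symbols came from a table of WormBase identifiers, and coding lengths and neighbours from the Ensembl 115 annotation, in which no member's coding sequence overlaps another gene's. No sequences are shown.

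Counts were scaled with TMM (factors 0.828 at 36 h to 1.16 at 22 h) and fitted in edgeR 4.0.16 (R 4.3.3) over all 13958 genes that passed the filter, with an intercept, linear time and the 8 h cosine and sine, which leaves 6 residual degrees of freedom. Dispersions were robust and p-values of all tested genes were adjusted together (Benjamini-Hochberg). Errors are standard errors of the fit. DESeq2 1.42.0 and limma 3.58.1 served as alternatives, beside other scalings, filters, periods and curve shapes, and fits that each lacked 1 library. The procedure was tested on simulated data. Python 3.11.15 with pandas 2.3.3, scipy 1.17.1 and matplotlib 3.10.9 made the other values. Folds for genes at 0 in a library are bounds against 3 counts there. Intervals cover counting error only.

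Members and lists were chosen with earlier results of these data known. Values in every library are given for the 3 called members of each subfamily with the largest differences and a mean of at least 10 CPM, the most abundant per coding length, hog-1, qua-1, and the largest called rise and fall. Those of grd-3, grd-10, grd-13, wrt-6 and grl-27 were added after their values were seen.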

Additional observations from a re-analysis of the deposited data

How the results depend on the processing

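The counts of oscillating members kept within 1.5 times of 37 (all), 8 (wrt), 11 (grd) and 16 (grl) under other scalings, filters, tools and shapes of the cycle, where 31 to 39 members were called. DESeq2 called the same 37 as edgeR, and 32 of these 37 were called with a period of 7.5 h. With a period of 8.5 h 26 members were called, and of the grd genes 7. With periods of 7 h and 9 h the counts were 0 for all members and for wrt, grd and grl, although 28 and 20 members had an unadjusted p under 0.05 in edgeR. Leaving out 1 library at a time gave 32 to 37 members, 7 to 8 wrt, 8 to 11 grd and 15 to 16 grl genes. Of the 37 calls 19 held under each alternative other than 7 h and 9 h in which the gene was tested (grd-11 and grl-6 were not tested with a mean of at least 50 counts). The trend count of 7 was less stable: 4 with a mean of at least 50 counts, 2 at 7 h, 4 at 9 h, 12 with quadratic time added, and 4 to 9 with 1 library left out (4 without the 30 h or the 34 h library). The trend of wrt-10 reversed to 0.34 log2 at 7 h. The causes were not tested. No paired analysis was possible because each time has a single library with no replicate number. With 1 library per time, any departure from the fitted curve enters the error.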

Other observations

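The Hog domain, the autoprocessing part, divides the family in another way than the names do. Textbook knowledge gives it to 10 members: wrt-1, wrt-4, wrt-6, wrt-7, wrt-8, grd-1, grd-2, grd-11, hog-1 and qua-1. This grouping was made after the values had been seen and was given no test. All 10 were tested and 9 oscillated, all but wrt-7, with peaks from 26.1 h (wrt-1) to 28.1 h (wrt-8), a span of 1.9 h and a resultant length of 0.880. The 28 oscillating members without it peaked from 25 h to 30.8 h (resultant length 0.445). Coding regions of the Hog-domain genes held 244 to 1168 codons (median 574), those of the others 101 to 773 (median 215).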
